A study of Mus musculus with 25 samples.

Results

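The genes described here are 8 genes of eosinophils and type 2 immunity, measured in mouse colon during chemical colitis. They are the receptors Il5ra and Ccr3, the granule proteins Prg2 and Epx, the lipoxygenase Alox15 and the cytokines Il4, Il5 and Il13. All 8 were found by gene name on the array, with 1 probe each, among 34779 gene and transcript names. Colon RNA came from female mice that the labels give as 8 weeks old, and each group was measured on single-colour arrays. The tested genotype was Card9-/- on the C57BL/6j background (KO), with 3 arrays at day 0, 4 at day 7 and 5 at day 12. C57BL/6j wild-type mice (WT) gave 3, 5 and 5 arrays on the same days. At day 0 the mice had not received dextran sulfate sodium (DSS), a polymer that injures the colon lining when drunk. Day 7 was the end of 7 days of 2% (w/v) DSS in the drinking water, and day 12 followed 5 further days of plain water, in both genotypes. The design text counts 5 KO mice at day 7, and 4 arrays of that group were analysed here. Which part of Card9 was deleted, which segment of the colon was taken and whether the genotypes were littermates are not given in the sources used here.

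Eosinophils are granulocytes that live in the lamina propria of the healthy gut and are recruited further during inflammation. IL-5 drives their growth and survival through a receptor made of IL-5Rα (Il5ra) and a β chain shared with IL-3 and GM-CSF, while eotaxin chemokines guide them through CCR3. IL-4 and IL-13, made by type 2 lymphocytes, act on epithelium and macrophages through receptors that share IL-4Rα. CARD9 is the adaptor that passes signals from fungus-sensing lectin receptors to NF-κB.

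Il5ra and Ccr3, the receptors whose signal was measurable, have start-site regions in a RefSeq-based table for the GRCm38.p6 build. The regions run from 250 bases before to 50 bases after the start site that the table uses, Il5ra at chr6:106748988-106749287 on the minus strand and Ccr3 at chr9:124021721-124022020 on the plus strand. The Ccr3 window lies inside the annotated span of the gene, which begins upstream of it at position 124017825, so it is not the region around the outermost start. Both windows are printed 5′ to 3′ because GATA factors are known regulators of the eosinophil lineage, and the capitals mark the letters GATAA, searched on both strands.
Il5ra: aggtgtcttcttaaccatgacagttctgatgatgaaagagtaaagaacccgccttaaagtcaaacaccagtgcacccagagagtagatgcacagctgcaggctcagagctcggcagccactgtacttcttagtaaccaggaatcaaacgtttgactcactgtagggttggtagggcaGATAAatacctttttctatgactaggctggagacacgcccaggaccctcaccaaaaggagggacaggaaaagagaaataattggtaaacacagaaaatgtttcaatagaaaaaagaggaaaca
Ccr3: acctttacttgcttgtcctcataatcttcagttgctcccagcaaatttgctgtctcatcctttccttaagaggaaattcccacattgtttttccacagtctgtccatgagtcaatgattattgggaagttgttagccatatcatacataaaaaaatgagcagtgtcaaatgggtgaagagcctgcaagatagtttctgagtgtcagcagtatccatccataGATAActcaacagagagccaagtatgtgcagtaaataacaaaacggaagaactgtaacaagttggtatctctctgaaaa
Each window held 1 match, on the strand of the gene. GATAA is common, since 25.4% of the 32851 promoters of this length in the table held it on either strand, and a match is a description of letters only.

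The signal is log2 of each probe's processed intensity minus the 75th percentile of the same array, so that 0 is the level of the probe at that percentile and each step of 1 is a doubling. A probe counts as well above background when the scanner software marked it so. Between 48.0% and 60.0% of spots were well above background on 23 of the arrays. On the other 2, WT day 7 replicate 5 and WT day 12 replicate 5, the shares were 61.7% and 67.9%, and several dim members were highest there. Pancreatic acinar genes were bright on KO day 7 replicates 2 and 3, KO day 12 replicate 1 and, less so, WT day 12 replicate 5. Genes of proximal colon position (Hox genes) were high on KO day 0 replicates 1 and 2 and WT day 7 replicate 1. The single Card9 probe lay between -1.52 and -0.48 on the 12 arrays labelled KO and between -6.84 and -2.93 on the 13 arrays labelled WT. The probe thus separates the labels without overlap, in the direction opposite to loss of the transcript, and the cause was not tested. Because the deleted part is not given, the probe cannot tell whether the labels are right or swapped. The genotype names below are therefore the arrays' labels, and every direction between genotypes rests on them.

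Detection set what could be tested. Il5ra was well above background on 24 of 25 arrays, Ccr3 on 9, Alox15 on 6, Il4 on 2, Prg2 and Il13 on 1 each, and Epx and Il5 on none. Only Il5ra, Ccr3 and Alox15 passed the filter of at least 3 arrays and entered the fit with the 25448 genes tested. The other 5 members are described by the arrays on which they were seen. In bulk colon RNA, fewer cells of a type and less RNA per cell cannot be told apart.

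**Figure D1:**
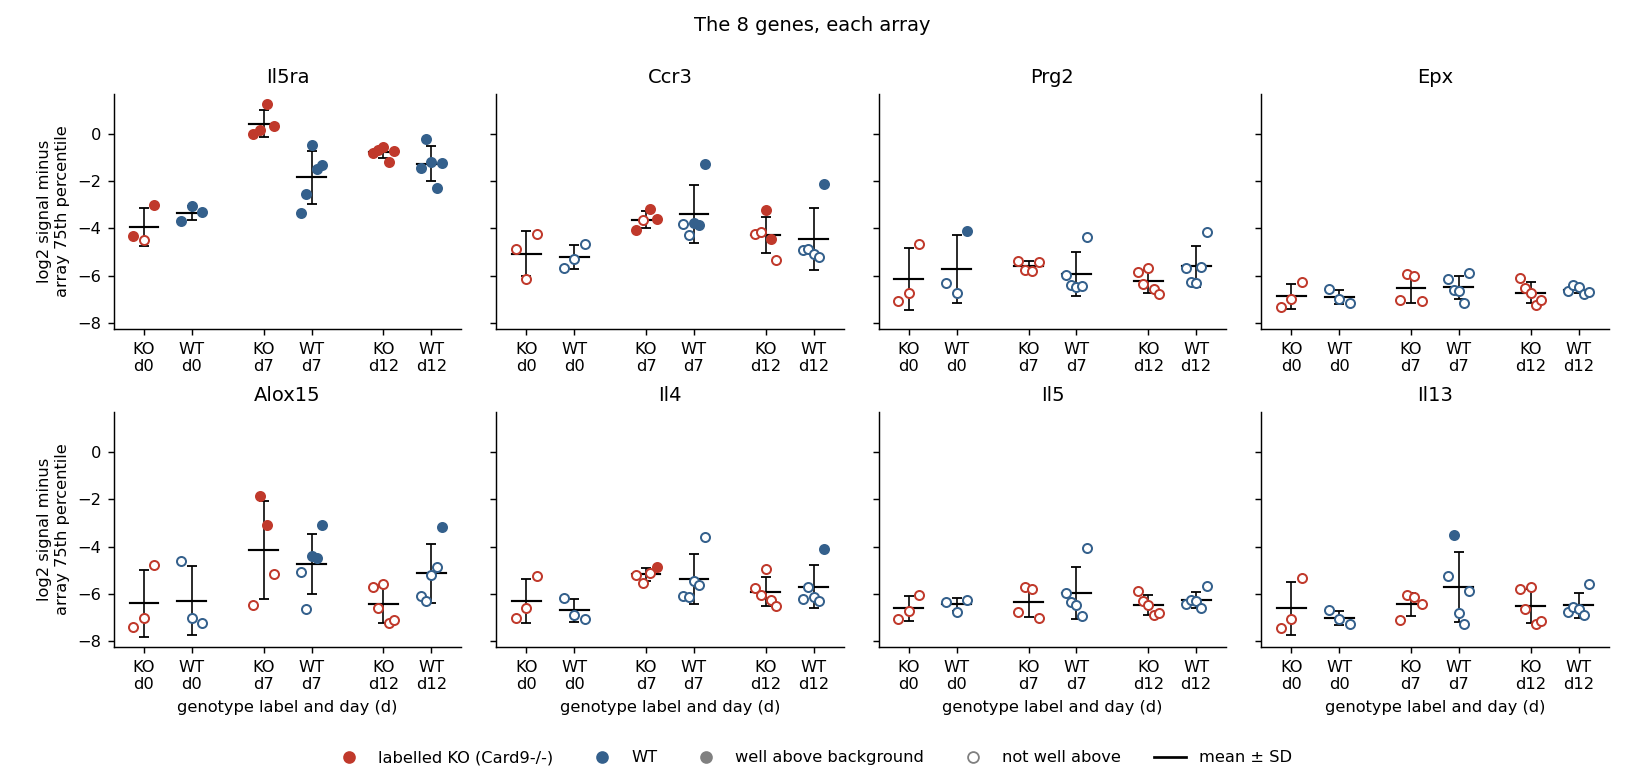
Level of each of the 8 genes on each array (y axis, log2 signal minus the array's 75th percentile) by genotype label and day, with filled points well above background, open points not, and bars for mean ± SD. Il5ra is the brightest panel, with 24 filled points, and Epx and Il5 have 0 filled points.

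Il5ra, the IL-5-specific chain of the IL-5 receptor, rose with DSS in the arrays labelled KO and was still above its day 0 level after recovery. It was 20.8-fold higher at day 7 and 8.99-fold higher at day 12 than at day 0 in those arrays. In WT arrays it was 4.23-fold higher at day 12 than at day 0, and at day 7 it was 4.80-fold higher in arrays labelled KO than in WT arrays. These last calls were less stable, being lost in 15 and 18 of 39 alternative settings, and the interaction of genotype with the day 7 against day 0 step did not pass (limma adjusted p = 0.221).

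The Il5ra probe lies on chromosome 6 at positions 106660378 to 106660437 (mm9, minus strand). In arrays labelled KO, the levels were -4.34, -4.50 and -3.03 at day 0, the second of them not well above background. The lower values came from replicates 1 and 2, which were high in proximal Hox genes (mean log2 level 3.08 and 2.71). Replicate 3 was not (-0.44). The Il5ra levels were -0.03, 0.17, 1.24 and 0.31 at day 7, and -0.80, -0.69, -0.55, -1.18 and -0.71 at day 12. All 4 day 7 arrays lay above all 5 day 12 arrays, which in turn lay above all 3 day 0 arrays.

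In WT arrays the levels were -3.68, -3.07 and -3.30 at day 0, then -3.36, -2.54, -0.46, -1.50 and -1.33 at day 7. At day 12 they were -1.43, -0.23, -1.19, -2.28 and -1.22. The WT day 7 arrays were spread widely: replicate 1 lay within the day 0 range and replicate 3 was the highest, while the day 12 arrays lay wholly above day 0.

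**Figure D2:**
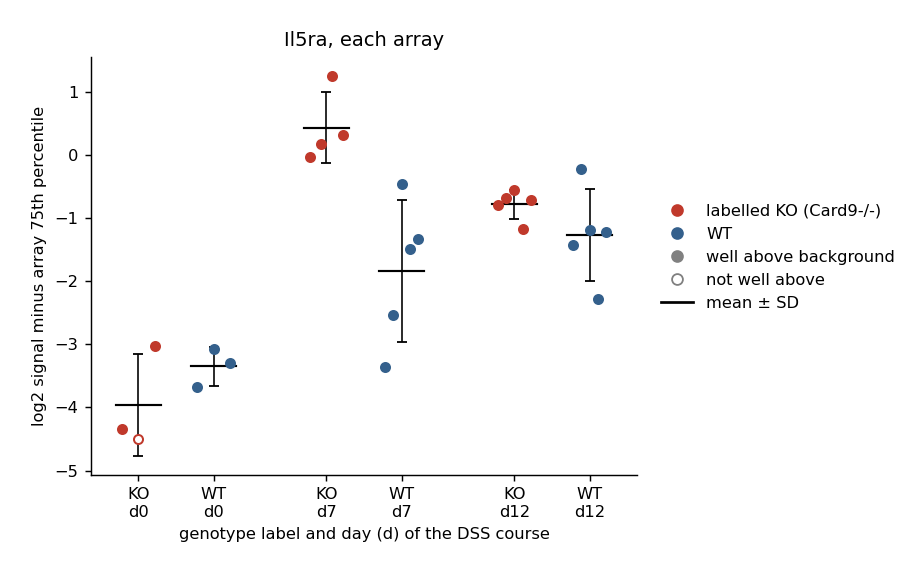
Il5ra level on each of the 25 arrays (y axis, log2 signal minus the array's 75th percentile) by genotype label and day, with mean ± SD. The 4 KO day 7 points, from -0.03 to 1.24, lie above all 5 WT day 7 points, from -3.36 to -0.46.

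The day 7 against day 0 difference in arrays labelled KO was 4.38 ± 0.53 (log2, SE) with limma adjusted p = 2.02e-05. In that contrast 19.7% of all genes tested were called at an adjusted p under 0.05, in either direction. The day 12 against day 0 difference in the same arrays was 3.17 ± 0.51 with limma adjusted p = 0.000925, against a background of 6.97% of genes called, and the groups did not overlap, as for 6.96% of genes in that direction. Both calls held under all 39 alternative settings, the proximal Hox mean as a covariate among them. The differences were 2.67 to 4.85 at day 7 and 1.68 to 3.63 at day 12. Within the 2 slides that held both groups, the day 7 differences were 3.73 and 4.65 and the day 12 differences 2.59 and 3.64. The day 12 against day 7 difference in arrays labelled KO, -1.21 ± 0.47, did not pass (limma adjusted p = 0.119, background 7.71%), although the groups did not overlap, as for 3.58% of genes in that direction.

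In WT arrays the day 12 against day 0 difference was 2.08 ± 0.51 with limma adjusted p = 0.0388, where 1.73% of genes were called. The groups did not overlap, as for 9.36% of genes in that direction, and within 3 slides the difference was 1.40 to 2.84. The call was lost in 15 of the 39 alternative settings. These included the removal of any 1 of the WT day 0 arrays, of WT day 12 replicate 1, 2, 3 or 5, or of KO day 12 replicate 5 (limma adjusted p = 0.0505 to 0.209), as well as normexp background correction (1.23, limma adjusted p = 0.0798) and the removal of WT day 7 replicate 5 and WT day 12 replicate 5 (limma adjusted p = 0.0763). The day 7 against day 0 difference, 1.51 ± 0.51, did not pass (limma adjusted p = 0.101, background 4.35%). Without WT day 7 replicate 1, the array high in proximal Hox genes, it was 1.89 with limma adjusted p = 0.0165, and with the Hox mean as a covariate limma adjusted p was 0.0104. Day 12 against day 7 in WT arrays differed by 0.57 ± 0.44 (limma adjusted p = 0.606, background 0.487%).

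Between genotypes, Il5ra was higher at day 7 in arrays labelled KO by 2.26 ± 0.47 (log2, SE) with limma adjusted p = 0.0396. In that contrast 0.55% of genes were called, and 0.912% of genes had groups that did not overlap in this direction, as Il5ra did. Within each of the 4 slides the difference had the same sign, at 1.67 to 3.33. The call lay close to the threshold and was lost in 18 of the 39 alternative settings, 13 of which left out a single array (limma adjusted p = 0.0501 to 0.133). Over all 39 settings the difference was 1.61 to 2.61, with a limma adjusted p of up to 0.667. The 13 arrays whose removal lost the call were WT day 0 replicates 1 and 2, KO day 0 replicate 1, WT day 7 replicates 1, 2, 4 and 5, KO day 7 replicates 2, 3 and 4, WT day 12 replicates 1 and 5 and KO day 12 replicate 5. Without the 4 arrays with pancreatic genes it was 1.98 (limma adjusted p = 0.378), and without WT day 7 replicate 5 and WT day 12 replicate 5 it was 2.39 (limma adjusted p = 0.0685). At day 0 the difference was -0.61 ± 0.57 (limma adjusted p = 1.00, background 0.00393%), and at day 12 it was 0.48 ± 0.44 (limma adjusted p = 0.843, background 0.0707%).

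Whether the change over time itself differed between genotypes was tested as an interaction. The day 7 against day 0 difference was 2.87 ± 0.74 more in arrays labelled KO than in WT arrays, which did not pass (limma adjusted p = 0.221, background 0.00393%). It passed without WT day 7 replicate 3, at 3.22 with limma adjusted p = 0.0213. The change from day 7 to day 12 differed by -1.78 ± 0.64 (limma adjusted p = 0.528, background 0.00786%). The order of the group means, from the highest, was KO day 7 at 0.43 ± 0.56 (SD, n = 4), KO day 12 at -0.79 ± 0.24 (n = 5) and WT day 12 at -1.27 ± 0.73 (n = 5). WT day 7 at -1.84 ± 1.13 (n = 5), WT day 0 at -3.35 ± 0.31 (n = 3) and KO day 0 at -3.96 ± 0.81 (n = 3) followed. No pair of neighbours in this order differed past the threshold, and all pairs but KO day 7 and KO day 12 overlapped.

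Markers of several blood cell types followed the course of Il5ra only in part, and their role in its change was not tested. Mouse B-1 cells are also known to carry IL-5Rα. All 7 B cell markers were tested, and their summed linear level, in multiples of the array's 75th percentile, was 0.826 to 5.71 in KO day 0 arrays, 5.11 to 12.0 at day 7 and 5.67 to 14.7 at day 12. In WT arrays it was 1.37 to 12.6 at day 0, 1.21 to 3.74 at day 7 and 1.55 to 9.97 at day 12. The WT day 12 sum thus overlapped day 0, whereas Il5ra did not. At day 7 the B cell sum was therefore higher on every array labelled KO than on any WT array, as Il5ra was.

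All 10 neutrophil markers were tested, with a summed level of 90.9 to 106 in KO day 0 arrays, 185 to 291 at day 7 and 126 to 162 at day 12. In WT arrays the neutrophil sum was 98.0 to 123 at day 0, 94.5 to 207 at day 7 and 93.6 to 130 at day 12. The sum is carried by the brightest genes, and the mean log2 level of the same list moved further. That mean was -3.29 to -2.02, 1.94 to 2.64 and 0.22 to 1.71 in KO arrays at days 0, 7 and 12, against -2.76 to -2.38, -0.76 to 2.03 and -0.75 to 0.76 in WT arrays. By the mean, day 7 lay above day 0 without overlap in both genotypes. Of the 9 mast cell markers, 8 were tested (Tpsab1 was not), and their sum was 6.21 to 7.08, 7.68 to 12.9 and 13.5 to 22.7 in KO arrays at days 0, 7 and 12, against 5.85 to 6.65, 5.59 to 7.56 and 10.6 to 13.2 in WT arrays. The mast cell mean log2 level was -2.54 to -1.31, 0.40 to 1.00 and 0.77 to 1.56 in KO arrays on those days, against -1.95 to -1.27, -0.99 to 0.31 and 0.36 to 0.64 in WT arrays. By the mean, mast cell markers too lay above day 0 at day 7 in both genotypes, while their sum in WT arrays overlapped between these days. In arrays labelled KO the mast cell sum lay higher at day 12 than at day 7 without overlap, where Il5ra lay lower.

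By the likeness measure, Pearson's r of log2 level over the 25 arrays among 20186 genes well above background on at least 13 arrays, the genes nearest to Il5ra were Hdc, Selplg and Stat4. Their r was 0.932, 0.931 and 0.930, a description over arrays that share groups and depth. These genes were picked by their likeness to Il5ra over the same arrays. Their own changes below follow partly from that choice and are no separate support for the course of Il5ra. Hdc, which makes histamine and is among the mast cell markers above, was at least 68.3-fold higher at day 7 than at day 0 in arrays labelled KO (limma adjusted p = 1.77e-05) and 10.6-fold higher in WT arrays (limma adjusted p = 0.00906). From day 7 to day 12 in arrays labelled KO, Hdc fell (-2.40 ± 0.66, limma adjusted p = 0.0289), whereas the mast cell sum rose. Selplg, the leukocyte ligand of P-selectin, was 5.77-fold higher at day 7 than at day 0 in arrays labelled KO (limma adjusted p = 8.59e-05), and Stat4, a transcription factor of IL-12 signalling, 5.07-fold higher (limma adjusted p = 0.000222). At day 7 between genotypes, Hdc differed by 2.48 ± 0.66 (limma adjusted p = 0.0733), Selplg by 1.12 ± 0.32 (limma adjusted p = 0.0908) and Stat4 by 0.96 ± 0.33 (limma adjusted p = 0.147), so that none of these passed.

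Ccr3, the eotaxin receptor, was dim, and its differences did not pass the test in any of the 11 contrasts. Its probe lies on chromosome 9 at positions 123945225 to 123945284 (mm9, plus strand). In arrays labelled KO the levels were -4.85, -6.12 and -4.22 at day 0, -4.09, -3.64, -3.18 and -3.61 at day 7, and -4.23, -4.14, -3.23, -4.44 and -5.34 at day 12. In WT arrays they were -5.66, -5.28 and -4.67 at day 0, -3.81, -4.26, -3.76, -3.86 and -1.27 at day 7, and -4.93, -4.88, -5.07, -5.22 and -2.13 at day 12. The day 7 arrays lay above the day 0 arrays in both genotypes, and replicate 5 stood far above its group on both WT days.

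None of the 6 day 0 arrays had Ccr3 well above background, so its fold over day 0 is a bound. For a bound, each dim array counts at the probe's measured level or at that array's dimmest well-measured probe, whichever is brighter. In arrays labelled KO, Ccr3 was at least 1.91-fold higher at day 7 than at day 0, with a fitted difference of 1.44 ± 0.71 (limma adjusted p = 0.177). In WT arrays the bound was at least 2.33-fold, and the fitted difference of 1.81 ± 0.68 gave limma adjusted p = 0.148. Groups did not overlap in this direction for 9.01% of genes in the KO contrast and 4.7% in the WT contrast.

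Without WT day 7 replicate 5 and WT day 12 replicate 5, the WT difference was 1.28 (limma adjusted p = 0.0913) and the KO difference, still 1.44, passed with limma adjusted p = 0.0178. Between genotypes at day 7 Ccr3 differed by -0.23 ± 0.62 (limma adjusted p = 0.903), and by 0.30 without WT day 7 replicate 5. Day 12 against day 7 gave -0.65 ± 0.62 in arrays labelled KO (limma adjusted p = 0.609) and -1.06 ± 0.59 in WT arrays (limma adjusted p = 0.46). Ccr3 at day 7 thus had groups apart from day 0 in both genotypes without passing the test in either.

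**Figure D3:**
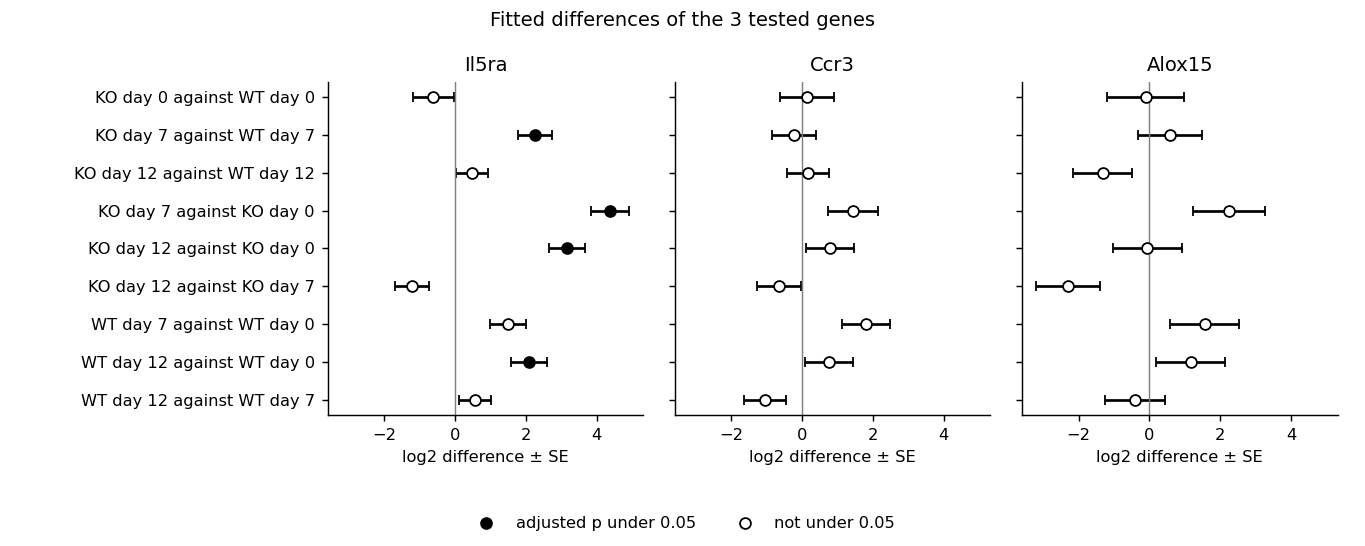
Fitted log2 difference ± SE (x axis) of Il5ra, Ccr3 and Alox15 in 9 contrasts between groups (y axis), with filled points for an adjusted p under 0.05. Il5ra has 4 filled points, at 2.26, 4.38, 3.17 and 2.08, and the other genes have none.

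Prg2 encodes major basic protein, the core of the eosinophil granule, and Epx encodes eosinophil peroxidase of the same granule. These granule transcripts were at or near background throughout, including the KO day 7 arrays in which Il5ra was brightest. The number of eosinophils was not measured, and their presence cannot be read from these 2 probes. The Prg2 probe (chromosome 2, positions 84822799 to 84822858, mm9, plus strand) was well above background on WT day 0 replicate 3 alone, at -4.09. On the other arrays it ranged up to -4.17, the value of WT day 12 replicate 5. In the KO day 7 arrays Prg2 read -5.39, -5.76, -5.80 and -5.42, against -5.95, -6.40, -6.50, -6.44 and -4.34 in the WT day 7 arrays, all of them not well above background.

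The Epx probe (chromosome 11, positions 87678288 to 87678347, mm9, minus strand) read -7.32 to -5.89 over all 25 arrays, with 1 array positive and significant by the scanner's weaker criterion. Group means of Epx lay between -6.90 and -6.49. No order of the groups can be read from values at this floor.

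Alox15 encodes the lipoxygenase that makes 12- and 15-hydroxy fatty acids, a product of eosinophils and, in mice, of resident macrophages. The 60 bases of its probe are spread over 225 bases of chromosome 11, positions 70159115 to 70159339 (mm9, minus strand). It is shown because the gene's signal rests on it alone.
Alox15 probe: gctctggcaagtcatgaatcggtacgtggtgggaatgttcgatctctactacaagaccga
In arrays labelled KO the levels were -7.39, -7.02 and -4.77 at day 0, -6.49, -1.87, -3.08 and -5.17 at day 7, and -5.69, -6.61, -5.60, -7.24 and -7.10 at day 12. In WT arrays they were -4.62, -7.04 and -7.24 at day 0, -5.06, -6.64, -4.38, -4.48 and -3.11 at day 7, and -6.10, -6.31, -5.20, -4.88 and -3.18 at day 12. The groups overlapped in every contrast, and the KO day 7 arrays alone spanned -6.49 to -1.87.

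The pair of bright KO day 7 arrays, replicates 2 and 3, are among the 4 with pancreatic acinar genes. Of the others, WT day 12 replicate 5 read -3.18, well above background, and KO day 12 replicate 1 read -5.69, not well above it. WT day 7 replicates 3, 4 and 5 were well above background at -4.38, -4.48 and -3.11 without bright pancreatic genes. The part of that tissue in the Alox15 signal was not tested. The summed level of the 10 pancreatic markers tested, of 11, reached 9866 in the KO day 7 group, against 15.3 at most in the WT day 7 group. Day 7 against day 0 in arrays labelled KO gave 2.24 ± 1.01 (limma adjusted p = 0.136, at least 1.41-fold), and 0.57 without the 4 arrays with pancreatic genes (limma adjusted p = 0.80). Without KO day 7 replicate 1, the dimmest array of its group, the difference was 3.02 and passed with limma adjusted p = 0.0357. Alox15 therefore gave calls that depended on which of the 4 arrays were kept.

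In the same arrays Alox15 at day 12 was at least 1.28-fold lower than at day 7, at -2.30 ± 0.89 (limma adjusted p = 0.122), and it fell by 3.08 with limma adjusted p = 0.0371 without KO day 7 replicate 1. In WT arrays day 7 against day 0 gave 1.56 ± 0.97 (limma adjusted p = 0.448). No WT day 0 array was well above background, and at the bound, -0.025 on the log2 scale, no rise was measured. Day 12 against day 7 in WT arrays gave -0.40 ± 0.84 (limma adjusted p = 0.879). Between genotypes at day 7 the difference was 0.58 ± 0.89 (limma adjusted p = 0.813), and -1.09 without the arrays with pancreatic genes.

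The cytokine genes Il4, Il13 and Il5 lie together on chromosome 11, in 112.6 kb from the annotated start of Il4 to the annotated end of Il5 (GRCm38.p6). Il4 is the most densely measured of them, since its probe was spotted 10 times on each array, at positions 53426076 to 53426135 (mm9, minus strand). Its sequence is shown because these repeated spots are the best measure here of a cytokine near background.
Il4 probe: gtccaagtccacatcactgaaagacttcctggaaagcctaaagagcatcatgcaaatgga
Of the 250 Il4 spots, 27 were well above background, which is 10.8%, and 10 arrays had at least 1 such spot. The probe counted as well above background on KO day 7 replicate 4, at -4.86, and WT day 12 replicate 5, at -4.10.

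In arrays labelled KO, Il4 read -7.02, -6.61 and -5.26 at day 0, -5.20, -5.54, -5.10 and -4.86 at day 7, and -5.74, -6.05, -4.93, -6.28 and -6.50 at day 12. In WT arrays it read -6.16, -6.89 and -7.05 at day 0, -6.10, -6.13, -5.47, -5.64 and -3.58 at day 7, and -6.22, -5.71, -6.13, -6.32 and -4.10 at day 12. Neither the WT day 0 nor the WT day 7 group had an array with Il4 well above background, so no order is read between them, and KO day 0 replicate 3 lay inside the KO day 7 range.

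Il13, the cytokine of mucus and goblet cell responses, was well above background on WT day 7 replicate 2 alone, at -3.50. Its other WT day 7 arrays read -5.23, -6.80, -7.26 and -5.86, and the KO day 7 arrays -7.11, -6.05, -6.12 and -6.44. The single bright array therefore set the mean of its group, -5.73 ± 1.48 (SD, n = 5).

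Il5, the ligand of Il5ra, had no array well above background and was positive and significant on 3. It ranged from -7.08 to -5.72 in arrays labelled KO and from -6.94 to -4.06 in WT arrays, where WT day 7 replicate 5 was the highest. The Il13 probe lies at positions 53444828 to 53444887 (mm9, minus strand) and the Il5 probe at 53538468 to 53538527 (mm9, plus strand). When all 8 members were tested with no filter on dim probes, Il5ra alone was called, at day 7 and at day 12 against day 0 in arrays labelled KO.

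The genes around these members were counted in 8 lists of 81 genes, of which 67 were tested. In arrays labelled KO, 34 were called higher and 5 lower at day 7 than at day 0, against 17 higher and 2 lower in WT arrays. Over all genes, 6.93% were called higher and 12.7% lower in the KO contrast, and 2.02% higher and 2.33% lower in the WT contrast. At day 12 against day 0, 22 were higher and 3 lower in arrays labelled KO, against 11 higher and 2 lower in WT arrays. The shares over all genes were 3.71% higher and 3.26% lower for KO, and 1.13% higher and 0.601% lower for WT. At day 12 against day 7 in arrays labelled KO, 1 was higher and 9 were lower, against 5.74% and 1.97% of all genes, and none was called without the 4 arrays with pancreatic genes. Between genotypes limma called 0 of the 67 on any day, with 4, 20 and 8 at an unadjusted p under 0.05 on days 0, 7 and 12, and without WT day 7 replicate 3 it called 12 higher and 3 lower at day 7. In the interaction of genotype with the day 7 against day 0 step, limma called 0 of the 67, with 17 at an unadjusted p under 0.05. Leaving out 1 array gave 0 to 8 called higher. For the change from day 7 to day 12 limma called 0, with 7 at an unadjusted p under 0.05. Whether the counts themselves differ between genotypes was not tested. A list gene given below for 1 genotype only was not called in the other in that contrast, which does not show that it was unchanged. Without the 4 arrays with pancreatic genes the day 7 counts were 27 higher and 2 lower in arrays labelled KO and 15 and 2 in WT arrays, and the day 12 counts 17 and 3 in arrays labelled KO and 4 and 1 in WT arrays.

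With the proximal Hox mean as a covariate the KO count at day 12 was 6 higher and 1 lower, and without KO day 0 replicate 2 it was 8 and 2. Without KO day 0 replicate 1 it was 11 and 3. The WT count at day 7 was 5 higher and 1 lower without WT day 0 replicate 1, 6 and 1 without WT day 0 replicate 2, and 0 when only the groups compared were fitted. The WT count at day 12 was 3 higher without WT day 0 replicate 1, 6 without WT day 0 replicate 2 or 3, 5 without WT day 12 replicate 2 and 7 without WT day 12 replicate 5.

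**Figure D4:**
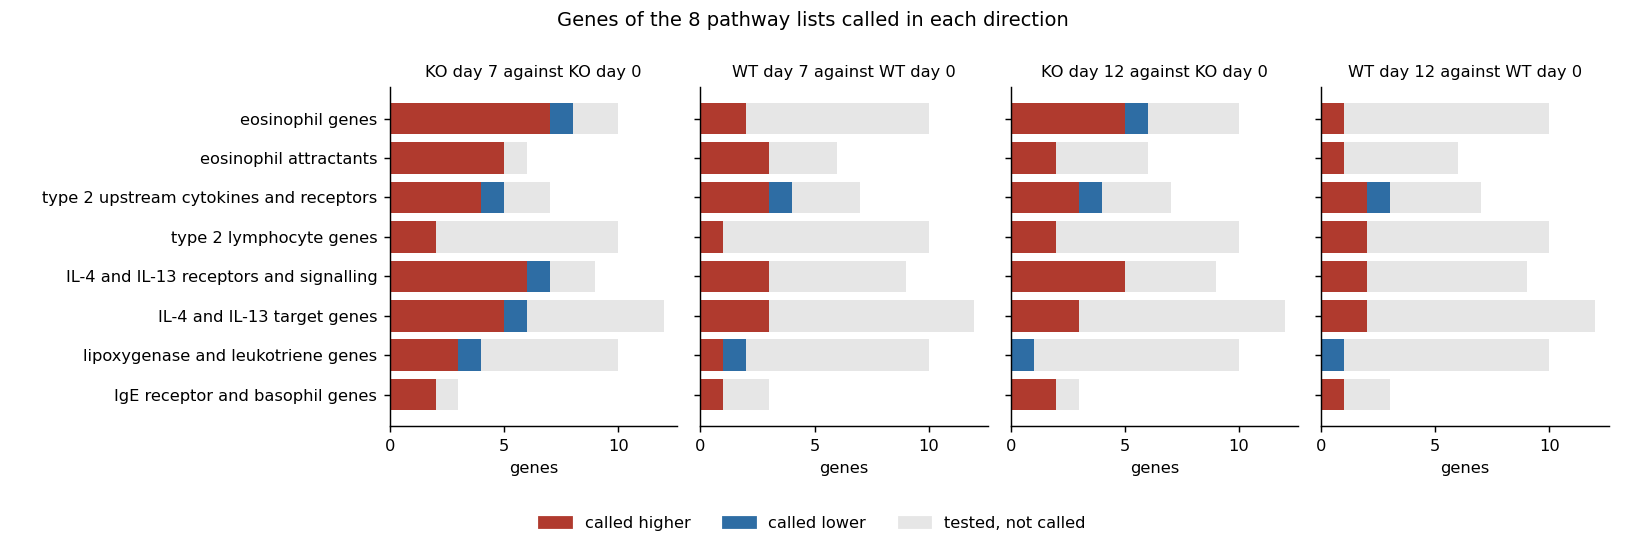
Number of genes (x axis) called higher, called lower or tested without a call in each of the 8 lists (y axis), at day 7 and day 12 against day 0 in arrays labelled KO and in WT arrays. The eosinophil list has 7 genes called higher and 1 lower at day 7 in arrays labelled KO, against 2 and 0 in WT arrays.

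Of the 10 eosinophil genes tested, 7 rose and 1 fell at day 7 in arrays labelled KO, with a median log2 difference of 2.28, or 1.63 with dim genes at their bounds, against -0.08 over all genes. In WT arrays 2 rose, with a median of 0.93, or 0.73 at bounds, against 0.03 over all genes. Most of these genes are also used by other myeloid cells, whose markers were higher in the same arrays. The neutrophil mean log2 level was 1.94 to 2.64 in KO day 7 arrays and -3.29 to -2.02 in KO day 0 arrays, and the macrophage mean was 0.85 to 1.14 and -1.46 to -0.97 (9 of 9 markers). Their part in the count was not tested. Csf2rb, the β chain that pairs with IL-5Rα, and its mouse copy Csf2rb2 rose in arrays labelled KO by 4.36 ± 0.57 (limma adjusted p = 4.03e-05) and 4.39 ± 0.58 (limma adjusted p = 4.37e-05), and probes of these near-identical genes may share signal. Il3ra, the IL-3 receptor α chain, rose by 1.88 ± 0.26 in arrays labelled KO and 1.08 ± 0.25 in WT arrays. Cebpe, a transcription factor of late granulocyte maturation, rose by 2.68 ± 0.50 in arrays labelled KO and at least 3.23-fold in WT arrays.

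The eosinophil-associated ribonucleases Ear1, Ear2 and Ear10, like Siglecf after them, are named after their values were seen. Ear2 was higher at day 7 than at day 0 in arrays labelled KO by 2.91 ± 0.73 (limma adjusted p = 0.00739), Ear1 at least 2.31-fold (limma adjusted p = 0.00129) and Ear10 at least 2.61-fold (limma adjusted p = 0.00884). These are closely related copies of 1 gene family, so their probes may share signal. Of the same list, Ear6 was tested and not called in any contrast, and Ear11 and Prg3 were not tested. No Ear gene was called in a contrast between WT groups.

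Siglecf, a sialic acid receptor known from eosinophils and also from epithelial tuft cells, moved the other way. It read 0.12, -0.14 and -0.65 in KO day 0 arrays, -2.02, -2.04, -1.43 and -1.70 at day 7, and -2.66, -2.90, -3.04, -2.60 and -3.47 at day 12, with no overlap between the days. Groups did not overlap in this direction for 18.1% of genes at day 7 against day 0, 9.67% at day 12 against day 0 and 3.58% at day 12 against day 7. At day 12 in arrays labelled KO it was lower than at day 0 by 2.71 on the log2 scale (-2.71 ± 0.36, limma adjusted p = 0.000165) and than at day 7 by 1.14 (-1.14 ± 0.33, limma adjusted p = 0.0391). In WT arrays Siglecf also read lower later, without a call. It was -0.61, -0.48 and -0.61 at day 0, -2.17 to -0.93 at day 7 and -2.58 to -0.90 at day 12. The tuft cell markers, of which Siglecf is not a member here, had a mean relative level of 0.59 to 0.87 in KO day 0 arrays and -1.47 to -0.39 in KO day 12 arrays, and their part was not tested.

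Among the 6 eosinophil attractants, 5 were higher at day 7 than at day 0 in arrays labelled KO and 3 in WT arrays. Their median differences were 2.08 and 1.60, against -0.08 and 0.03 over all genes. Ccl8 rose by 5.71 ± 0.67 in arrays labelled KO (limma adjusted p = 1.41e-05) and by 3.98 ± 0.64 in WT arrays (limma adjusted p = 0.00118). Ccl7 rose by 5.53 ± 1.09 in arrays labelled KO and at least 11.1-fold in WT arrays, where day 0 was not well above background. Ccl11, eotaxin-1 and a ligand of CCR3, rose by 2.80 ± 0.67 in arrays labelled KO (limma adjusted p = 0.00517). It read -0.74, -0.81, -0.42 and 0.51 in KO day 7 arrays, against -3.01, -2.92 and -3.55 in KO day 0 arrays. In WT arrays Ccl11 read -1.53, -1.71, 1.08, -1.08 and -2.67 at day 7, against -3.83, -2.65 and -2.67 at day 0, without a call. Ccl24, eotaxin-2, was at least 2.46-fold lower at day 12 than at day 7 in arrays labelled KO.

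Of the 7 upstream cytokine and receptor genes, 4 rose and 1 fell at day 7 in arrays labelled KO, and 3 rose and 1 fell in WT arrays. Their median differences were 1.50 and 0.77. Il33, an alarmin of stromal and epithelial cells, rose by 3.58 ± 0.55 in arrays labelled KO (limma adjusted p = 0.000161) and 2.94 ± 0.53 in WT arrays (limma adjusted p = 0.00314). Il1rl1, its receptor ST2, rose by 7.25 ± 0.87 in arrays labelled KO (limma adjusted p = 1.86e-05) and by 3.40 ± 0.83 in WT arrays (limma adjusted p = 0.0224). It read 3.08, 1.63, 3.40 and 3.65 in KO day 7 arrays, against -4.43, -2.96 and -5.54 in KO day 0 arrays. Il17rb, the IL-25 receptor chain, was lower at day 7 than at day 0 by 1.79 in arrays labelled KO (-1.79) and by 1.82 in WT arrays (-1.82 ± 0.40).

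Of the 10 type 2 lymphocyte genes tested, 2 were higher at day 7 than at day 0 in arrays labelled KO and 1 in WT arrays, with medians of 0.62 and 0.42, or 0.40 and 0.14 at bounds. Gata3, the defining transcription factor of these cells, rose by 2.42 ± 0.56 in arrays labelled KO (limma adjusted p = 0.00429) and 1.93 ± 0.54 in WT arrays (limma adjusted p = 0.0439). All 9 T cell markers were tested, and their summed level in KO arrays was 7.54 to 9.28 at day 0 and 8.99 to 12.1 at day 7, against 7.44 to 7.73 and 7.23 to 11.2 in WT arrays.

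Of the 9 genes for IL-4 and IL-13 receptors and signalling, 6 rose and 1 fell at day 7 in arrays labelled KO, and 3 rose in WT arrays, with medians of 1.29 and 0.67. Il4ra, the chain shared by both cytokines, rose by 1.31 ± 0.31 in arrays labelled KO and 1.29 ± 0.30 in WT arrays. At day 12 it was 1.32 ± 0.30 and 1.79 ± 0.30 above day 0 in the same groups. Il13ra2, a receptor known as a decoy for IL-13, rose by 2.34 ± 0.46 at day 7 in arrays labelled KO (limma adjusted p = 0.00126).

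Among the 12 IL-4 and IL-13 target genes tested, 5 rose and 1 fell at day 7 in arrays labelled KO, and 3 rose in WT arrays, with medians of 1.36 and 0.55, or 1.33 and 0.51 at bounds. Chil3, a chitinase-like protein made by macrophages and also by neutrophils, was at least 71.1-fold higher in arrays labelled KO and differed by 3.33 ± 0.86 in WT arrays. Mrc1, the macrophage mannose receptor, rose by 2.84 ± 0.48 in arrays labelled KO. Arg1, arginase of alternatively activated macrophages, was higher at day 12 than at day 0 in WT arrays by 3.31 ± 0.68 (limma adjusted p = 0.0137). The macrophage sum (9 of 9 markers) was 43.4 to 48.7 in KO day 7 arrays and 10.8 to 15.1 in KO day 0 arrays, against 21.8 to 53.6 in WT day 7 arrays and 14.7 to 20.9 in WT day 0 arrays, and its part in these counts was not tested.

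In the lipoxygenase and leukotriene list, 3 of 10 genes rose and 1 fell at day 7 in arrays labelled KO, and 1 rose and 1 fell in WT arrays, with medians of 0.20 and 0.36, or 0.01 and 0.22 at bounds. Alox5, the 5-lipoxygenase, was the gene that fell, by -1.26 ± 0.43 in arrays labelled KO (limma adjusted p = 0.0463) and -2.04 ± 0.42 in WT arrays (limma adjusted p = 0.00742). Its helper Alox5ap rose by 1.59 ± 0.35 in arrays labelled KO. Of the 3 IgE receptor and basophil genes tested, of 6, Fcer1g and Fcer1a were called higher at day 7 than at day 0 in arrays labelled KO. In WT arrays Fcer1g was called in that contrast (1.85 ± 0.39, limma adjusted p = 0.00964) and Fcer1a was not. Fcer1a was well above background on 2 of 4 KO day 7 arrays, at least 1.33-fold higher than at day 0. The basophil protease Mcpt8 did not pass the filter. Fcer1a was at least 2.90-fold higher at day 12 than at day 0 in arrays labelled KO and at least 1.35-fold higher in WT arrays.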

How the data were processed

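Each deposited array file holds spot intensity values that the authors obtained with Agilent Feature Extraction 10.7.3.1, per the submitters' processing notes. The processed intensity is background-subtracted and not normalized between arrays, per the file headers. The deposited series value table, on a log2 scale by its values, served as an alternative. Control spots and spots flagged as outliers were left out, and log2 intensity minus the array's 75th percentile was taken. Spots of a probe were averaged. A probe was kept if well above background on at least 3 of 25 arrays, which left 36263 probes. A gene was its probe with the highest mean. Probes were named through their accession (27656), a symbol or synonym (3722) or the file (24303). All groups were fitted in 1 model with limma 3.58.1 (lmFit, eBayes) in R 4.3.3, with 11 contrasts and Benjamini-Hochberg adjustment over all genes. The steps were tested on simulated data. Alternatives changed the background correction, scaling, filter, probe rule, blocks, covariates and arrays included. The number of arrays limits the precision, and p-values measure the spread between these arrays. Every member was named. Of a list, up to 4 genes with the smallest p among those called in a contrast were named, and Siglecf, Il17rb, Ear1, Ear2 and Ear10 at day 7 in arrays labelled KO were chosen after their values were seen. The members and lists were chosen with earlier results of these data known.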

Additional observations from a re-analysis of the deposited data

Results flagged for a closer look

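The following 6 values stood apart from the other 4 arrays of their group by Dixon's test, among 32 groups of 4 or 5 arrays looked at, where chance flags about 1 group in 20. All 6 were on WT day 7 replicate 5 or WT day 12 replicate 5, the arrays with 61.7% and 67.9% of spots well above background. Ccr3 read -1.27 on WT day 7 replicate 5, against -4.26 to -3.76 on the other arrays, and -2.13 on WT day 12 replicate 5, against -5.22 to -4.88. Il4 read -3.58 and -4.10 on the same arrays, against -6.13 to -5.47 and -6.32 to -5.71. Prg2 read -4.34 on WT day 7 replicate 5, against -6.50 to -5.95. Il13 read -5.60 on WT day 12 replicate 5, against -6.89 to -6.54. The part of the arrays' higher share of bright spots in these values was not tested.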

How the results depend on the processing

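These 2 alternatives were added after seeing the data: leaving out WT day 7 replicate 5 and WT day 12 replicate 5 together, and the share of spots well above background as a covariate. Of the members called, the count for KO against WT at day 7 was 0 rather than 1 with no filter, with the filter on positive and significant spots, with only the groups compared, without the 4 arrays with pancreatic genes and without both replicate 5 arrays, and 0 to 1 when leaving out 1 array. For WT day 12 against day 0 the count was 0 rather than 1 under the same settings and under normexp correction and the series value table, and 0 to 1 when leaving out 1 array. The count was 1 rather than 0 for WT day 7 against day 0 with the Hox covariate, and 0 to 1 when leaving out 1 array. It was 1 rather than 0 for KO day 12 against day 7 with only the groups compared or the Hox covariate, and 0 to 1 when leaving out 1 array. It was 2 rather than 1 for KO day 7 against day 0 without both replicate 5 arrays, and 1 to 2 when leaving out 1 array. For the interaction at day 7 it was 0 to 1 when leaving out 1 array. Differences that changed sign, none of them called, were Il5ra at day 0 between genotypes (0.29 with the Hox covariate), Ccr3 at day 7 between genotypes (0.047 with the replicate block, 0.30 without both replicate 5 arrays, -0.45 to 0.30 when leaving out 1 array), Alox15 at day 7 between genotypes (-1.09 without the pancreatic arrays, -0.18 to 1.36 when leaving out 1 array) and Alox15 in WT day 12 against day 7 (-0.89 to 0.0075 when leaving out 1 array). The series value table has no Alox15 probe that was used. Arrays that share a replicate number did not deviate together (median r = 0.036, -0.44 to 0.68, over 54 pairs), so the numbers were not taken as pairing. With the replicate block Il5ra differed by 2.32 between genotypes at day 7 (limma adjusted p = 0.0442), and it changed no count of members called. The causes of these changes were not tested beyond fewer arrays or other genes in the adjustment.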
